A study of Mus musculus with 19 samples.

Results

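Ptprf and St3gal3 were the only 2 genes of the dorsal hippocampus called different between mice with and without the DN transgene, and both belong to gene families. The genes described here are their 7 paralogs, out of 51789 genes in the count table. Ptprd and Ptprs are the other LAR-type receptor phosphatases, and St3gal1, St3gal2, St3gal4, St3gal5 and St3gal6 are the other ST3 sialyltransferases. They were chosen by gene family and not by their own values, and each was found by its Ensembl identifier. The questions were whether they differed where Ptprf was higher and St3gal3 lower, and how much of each family's transcript every member supplies.

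The 19 libraries were made from dorsal hippocampus of male mice of the C57BL/6J strain, aged 2 to 4 months. Experiment 1 held 5 libraries (called DN libraries here) of genotype tTA+/DN+ and 6 controls of genotype tTA+/DN-, all exposed to SOR, which is named in the labels only by these letters. DN stands for an Nr4A transcription factor made dominant negative, and tTA is the tetracycline transactivator, a protein that drives tet-controlled transgenes. Controls were littermates, and the promoter driving tTA is not given in the labels. In experiment 2 all genotypes were DN-, and 4 libraries of mice exposed to SOR were set against 4 of mice from the homecage. Replicate 1 of the SOR libraries and replicates 1 and 2 of the homecage libraries were tTA-, and the other 5 were tTA+.

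LAR-type receptor phosphatases are cell-surface proteins with immunoglobulin-like and fibronectin-type domains outside the cell and tandem tyrosine phosphatase domains inside it. In neurons they guide axons and organise presynaptic terminals by binding partners such as the Slitrk proteins, the neurotrophin receptor Ntrk3 and proteoglycans. ST3 sialyltransferases are Golgi enzymes that add sialic acid to galactose at the ends of glycan chains. St3gal1 and St3gal2 act mainly on O-linked chains and gangliosides, St3gal3, St3gal4 and St3gal6 mainly on N-linked chains, and St3gal5 makes the ganglioside from which the complex gangliosides of brain are built.

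Libraries held 22258159 to 66991576 counts, and SOR replicate 3 of experiment 2 was the smallest. All 8 markers of hippocampal neurons were detected in every library, with a summed level of 3002 to 4381 CPM (counts scaled to library size with TMM factors). Levels of choroid plexus genes, which mark a tissue beside the hippocampus, varied between libraries. The 8 choroid plexus markers summed to 25.9 to 1646 CPM in the DN libraries, 19.8 to 4124 CPM in the controls of experiment 1, 23.3 to 2187 CPM after SOR and 44.3 to 172 CPM in the homecage. In whole tissue, fewer cells of a type and less RNA per cell cannot be told apart. The labels do not state that each library is a separate animal, so the p-values measure the spread between these samples.

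How far reads of one paralog could be counted for another was read from the GENCODE M21 transcripts. No stretch of 50 bases was shared between any pair of the 3 LAR-type genes, or between any pair of the 6 ST3 genes. This covers all their annotated transcripts, read in either direction. Coding sequences of Ptprs and Ptprf were identical at 69.7% of 5647 aligned positions, those of Ptprd and Ptprf at 67.1% and those of Ptprd and Ptprs at 66.6%. The longest identical run of coding bases was 27 in Ptprs and Ptprf, 26 in Ptprd and Ptprf and 21 in Ptprd and Ptprs. The next lines show 96 coding bases around the active-site signature of the first phosphatase domain, since this is where the proteins are known to be most conserved. Capitals mark the 68 bases that all 3 genes share, and positions count from 1 at the first base of the start codon.
Ptprd (4621 to 4716): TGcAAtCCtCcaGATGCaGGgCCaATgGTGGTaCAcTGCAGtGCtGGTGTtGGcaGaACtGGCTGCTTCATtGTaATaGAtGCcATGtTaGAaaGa
Ptprs (4606 to 4701): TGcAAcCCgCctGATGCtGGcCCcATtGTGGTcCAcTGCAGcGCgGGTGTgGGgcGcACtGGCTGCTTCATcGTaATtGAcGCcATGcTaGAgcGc
Ptprf (4579 to 4674): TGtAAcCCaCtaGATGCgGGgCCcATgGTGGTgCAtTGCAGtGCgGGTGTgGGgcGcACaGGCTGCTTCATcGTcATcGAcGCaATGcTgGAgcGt
Differences are spread along the whole window, and no stretch of 50 bases in either direction was the same in any pair of the 3 genes.

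The ST3 genes were less alike. St3gal1 and St3gal2 were the closest pair, identical at 61.9% of 997 aligned coding positions, and the other 14 pairs lay between 50.4% and 58.3%. The 75 coding bases around the longest run that St3gal1 and St3gal2 share, of 16 bases, are shown next, with the 58 identical bases in capitals.
St3gal1 (859 to 933): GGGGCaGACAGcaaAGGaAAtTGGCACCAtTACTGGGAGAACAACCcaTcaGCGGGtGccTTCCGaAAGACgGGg
St3gal2 (898 to 972): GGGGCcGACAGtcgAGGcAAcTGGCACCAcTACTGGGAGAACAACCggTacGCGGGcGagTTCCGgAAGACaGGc
Overlap with other genes is a separate matter. Of the exonic bases of St3gal6, 26.0% are also exonic in Dcbld2 on the opposite strand, and of those of St3gal4, 14.1% are exonic in 4930581F22Rik on the opposite strand. How the counting used strand, and reads over shared bases, is not given in the sources used here. Counts of St3gal6 and St3gal4 may hold reads of those genes or lack reads from the shared bases, which was not tested. In Ptprd, 7 bases overlap an opposite-strand transcript, and the other 4 paralogs overlap no other gene's exons.

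Positions are those of GRCm38. Ptprd (ENSMUSG00000028399, 84 exons) lies on chromosome 4 from 75941238 to 78211961, the chromosome of Ptprf (118208213 to 118291405) and St3gal3 (117932154 to 118134914), at a distance of 39.7 Mb from St3gal3. Ptprs (ENSMUSG00000013236, 72 exons) is on chromosome 17 from 56412426 to 56476483. St3gal1 (ENSMUSG00000013846) is on chromosome 15 from 67102875 to 67176830, and St3gal2 (ENSMUSG00000031749) on chromosome 8 from 110919922 to 110972480. St3gal4 (ENSMUSG00000032038) is on chromosome 9 from 35046576 to 35119268. St3gal5 (ENSMUSG00000056091) is on chromosome 6 from 72097592 to 72154571, and St3gal6 (ENSMUSG00000022747) on chromosome 16 from 58468125 to 58524243. Each is a protein-coding gene.

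Levels of different genes were compared per length, as CPM per kb of annotated exon, in the 4 homecage libraries. Ptprs had the highest level, at 31.8 ± 1.03 CPM per kb (SD, n = 4), with 31.95, 33.2, 30.7 and 31.5 in replicates 1 to 4. St3gal5 followed at 20.5 ± 0.921, Ptprd at 17.1 ± 1.06, St3gal2 at 14.7 ± 0.506, St3gal4 at 6.78 ± 0.338, St3gal6 at 1.89 ± 0.121 and St3gal1 at 1.05 ± 0.137 CPM per kb. No range over the 4 libraries overlapped the next in this order: St3gal5 spanned 19.6 to 21.3, Ptprd 15.6 to 18.0, St3gal2 13.9 to 15.1, St3gal4 6.47 to 7.16, St3gal6 1.73 to 2.00 and St3gal1 0.864 to 1.20 CPM per kb. Among the 22242 genes tested in experiment 2 with a known length, whose median was 2.46 CPM per kb, Ptprs stood at percentile 93.9, St3gal5 at 89.7, Ptprd at 87.4, St3gal2 at 84.98 and St3gal4 at 70.3. St3gal6, at percentile 45.1, and St3gal1, at 34.7, lay under the median of genes tested.

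Ptprf and St3gal3 held other places in their families. In the homecage Ptprf was the least abundant LAR-type gene, at 3.10 ± 0.406 CPM per kb (SD, n = 4), and St3gal3 was the third of the ST3 genes, with 10.8 to 12.5 CPM per kb. Ptprs supplied 61.2% ± 1.52 of the summed LAR-type level, Ptprd 32.9% ± 1.64 and Ptprf 5.95% ± 0.621 (3.28% ± 0.353 with the longest coding transcript as length). Of the summed ST3 level, St3gal5 supplied 36.1% ± 1.404, St3gal2 25.8% ± 0.565, St3gal3 21.1% ± 1.30, St3gal4 11.9% ± 0.484, St3gal6 3.32% ± 0.163 and St3gal1 1.84% ± 0.237. In the homecage libraries a different gene length kept the order inside each family but not the order between them. With the longest protein-coding transcript of each gene, Ptprd stood at 39.5 ± 2.45 CPM per kb, above St3gal5 at 22.01 ± 0.988 (SD, n = 4).

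**Figure D1:**
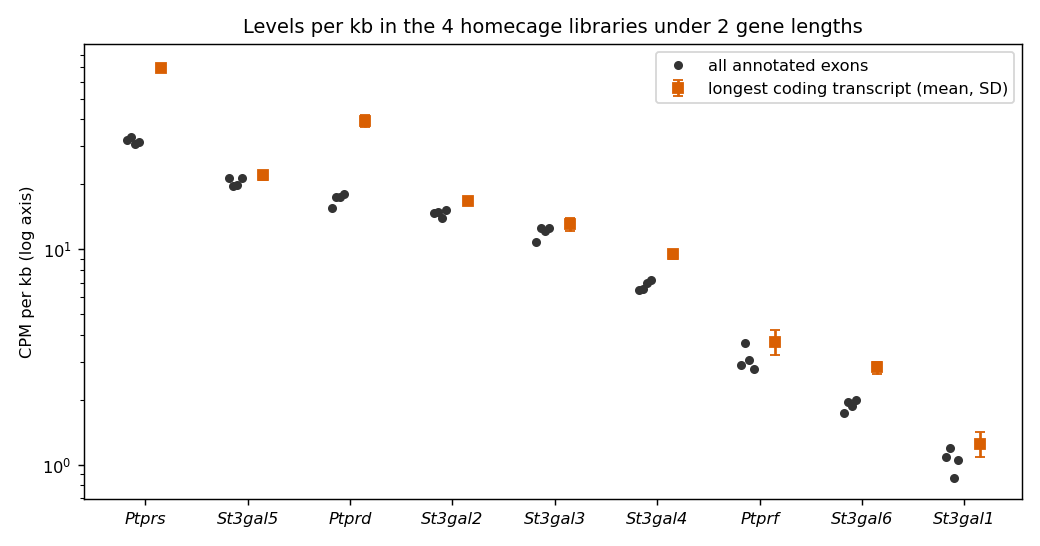
Level per kb (log axis) of the 7 paralogs and of Ptprf and St3gal3 in the 4 homecage libraries, as points for all annotated exons and as squares with the SD for the longest coding transcript. Ptprs is highest under both lengths, at 31.8 and 69.6 CPM per kb, and St3gal1 lowest, at 1.05 and 1.25 CPM per kb.

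Per kb of annotated exon, the same orders held within families across the study, with the exception given below. In all 19 libraries Ptprs lay above Ptprd, by 1.42 to 2.32 times, and St3gal5 lay above St3gal2, by 1.16 to 1.56 times. St3gal6 lay above St3gal1 in every library, by 1.23 to 2.38 times. St3gal2 lay above St3gal3 in 18 libraries, and the exception was SOR replicate 3 of experiment 2, with a ratio of 0.965. St3gal3 lay above St3gal4 by 1.15 to 2.21 times. With the longest coding transcript as length, St3gal4 lay above St3gal3 in DN replicates 2 and 5 only. Their shares of the ST3 sum there were 14.0% against 13.5% and 13.9% against 12.4%.

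The first comparison asked whether DN shifted any of the 7 paralogs in mice exposed to SOR. The groups overlapped for all 7, where 0.299% of all genes had groups that did not. edgeR called 0 of them, 0 had an unadjusted p under 0.05, and DESeq2 also called 0 with 0 at an unadjusted p under 0.05. Over all 22391 genes tested, 0.00893% were called and 3.83% had an unadjusted p under 0.05. The 7 log2 fold changes ran from -0.11 to 0.05 with a median of -0.03, against a median of 0.00 over all genes. The 95% intervals of the 7 fold changes all lay between 0.776 and 1.15, while those of Ptprf and St3gal3 lay between 2.63 and 3.08 and between 0.573 and 0.670. The edgeR adjusted p was 0.999 for each paralog.

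Ptprd, which binds postsynaptic partners such as Slitrk proteins and Il1rapl1, measured 416, 412, 488, 435 and 458 CPM in the DN libraries 1 to 5. The lowest, median and highest of the 6 control libraries were 415, 458 and 474 CPM. The groups covered almost the same range, and the highest library was a DN one. The log2 fold change was -0.03 (SE 0.0455, 95% interval -0.12 to 0.07).

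Ptprs, a receptor for chondroitin and heparan sulfate proteoglycans, measured 441, 518, 455, 516 and 439.5 CPM in the DN libraries. The lowest, median and highest control values were 446, 481 and 505 CPM. DN replicates 2 and 4 lay above every control and DN replicates 1 and 5 below every control, and the SD was 39.9 CPM with DN (n = 5) and 23.6 CPM in the controls (n = 6). This gave a log2 fold change of -0.01 (SE 0.0488, 95% interval -0.12 to 0.09).

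Ptprf itself was at 67.4, 86.9, 83.3, 85.5 and 86.2 CPM with DN and between 28.0 and 29.8 CPM in the controls. It stayed the lowest of the 3 genes per kb in every library, and its share changed. Ptprs exceeded Ptprf per kb 10.2 ± 0.545 times in the controls (SD, n = 6) and 3.55 ± 0.339 times in the DN libraries (SD, n = 5), or 17.4 to 19.8 and 5.70 to 7.30 times over the libraries with the longest coding transcript as length. Ptprf supplied 5.75% ± 0.231 of the summed LAR-type level in the controls and 14.9% ± 0.955 with DN. With the longest coding transcript as length these shares were 3.16% ± 0.130 and 8.58% ± 0.587. Ptprd and Ptprs together were at 51.6 ± 2.07 CPM per kb in the controls and 51.0 ± 2.40 with DN, and ranges of 47.95 to 54.0 and 47.6 to 53.5 overlapped almost fully. The family sum with Ptprf was 54.8 ± 2.09 and 59.9 ± 3.14 CPM per kb, a difference of 5.13, of which Ptprf supplied 5.80 and its paralogs -0.68. With the longest coding transcript as length the sums were 119.0 ± 4.61 and 124.4 ± 6.13 CPM per kb. Ptprf was at 3.76 and 10.7 CPM per kb of that length. These sums are given without a test, since the choice of genes followed the change in Ptprf.

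Among the ST3 genes, St3gal2, an enzyme that puts terminal sialic acid on the major brain gangliosides, measured 80.1, 83.8, 84.5, 80.5 and 78.6 CPM in the DN libraries. Control values had a lowest, median and highest of 80.1, 84.9 and 88.0 CPM. The groups overlapped, and the log2 fold change was -0.04 (SE 0.0353, 95% interval -0.12 to 0.03), the narrowest interval of the 7.

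St3gal5, the enzyme at the entry to ganglioside synthesis, measured 65.1, 64.6, 64.6, 63.6 and 54.9 CPM with DN, beside a control range of 59.4 to 67.4 CPM with a median of 63.9. DN replicate 5 lay below every other library of the experiment, and the other 4 DN libraries lay inside the control range. This gave a log2 fold change of -0.03 (SE 0.0452).

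St3gal4 measured 18.8, 20.1, 17.9, 19.5 and 17.8 CPM with DN, beside a control range of 18.6 to 21.4 CPM with a median of 20.2. It had the smallest p of the 7 in this comparison, 0.105 unadjusted, with 2 DN libraries below the control range and a log2 fold change of -0.09 (SE 0.0547, 95% interval -0.21 to 0.02).

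The less abundant enzymes were measured with less precision. St3gal1, which sialylates the core of O-linked chains, had 178 to 423 counts per library in experiment 1. Its mean was 7.84 ± 1.41 CPM with DN (SD, n = 5), next to a control mean of 8.49 ± 1.30 CPM (SD, n = 6). This is a log2 fold change of -0.11 (SE 0.121, 95% interval -0.37 to 0.14), the widest interval of the 7. With a library left out it ran from -0.19, without DN replicate 4, to -0.02, without DN replicate 2. St3gal6 measured 12.6, 12.4, 14.1, 13.01 and 15.03 CPM with DN, beside a control range of 11.9 to 14.8 CPM with a median of 12.5, a log2 fold change of 0.05 (SE 0.0729), which ran from 0.0047, without DN replicate 5, to 0.085, without control replicate 1. Dcbld2, which overlaps it on the other strand, averaged 28.2 ± 2.71 CPM in DN libraries (SD, n = 5), and the control mean was 28.2 ± 1.26 CPM (SD, n = 6).

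St3gal3 was at 23.3, 23.6, 23.0, 24.3 and 19.4 CPM with DN and at 34.6 to 38.5 CPM in the controls. The other 5 ST3 genes together were at 49.8 ± 2.06 CPM per kb with DN (SD, n = 5) and 51.3 ± 1.68 in the controls (SD, n = 6), with overlapping ranges of 46.2 to 51.1 and 49.3 to 53.8. With St3gal3 the family summed to 58.0 ± 2.72 and 64.5 ± 1.97 CPM per kb. The difference of -6.52 CPM per kb was made up of -5.05 from St3gal3 and -1.47 from its paralogs. The share of St3gal3 was 20.5% ± 0.635 in the controls and 14.1% ± 0.617 with DN, and no paralog was higher in CPM beyond the spread between libraries.

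**Figure D2:**
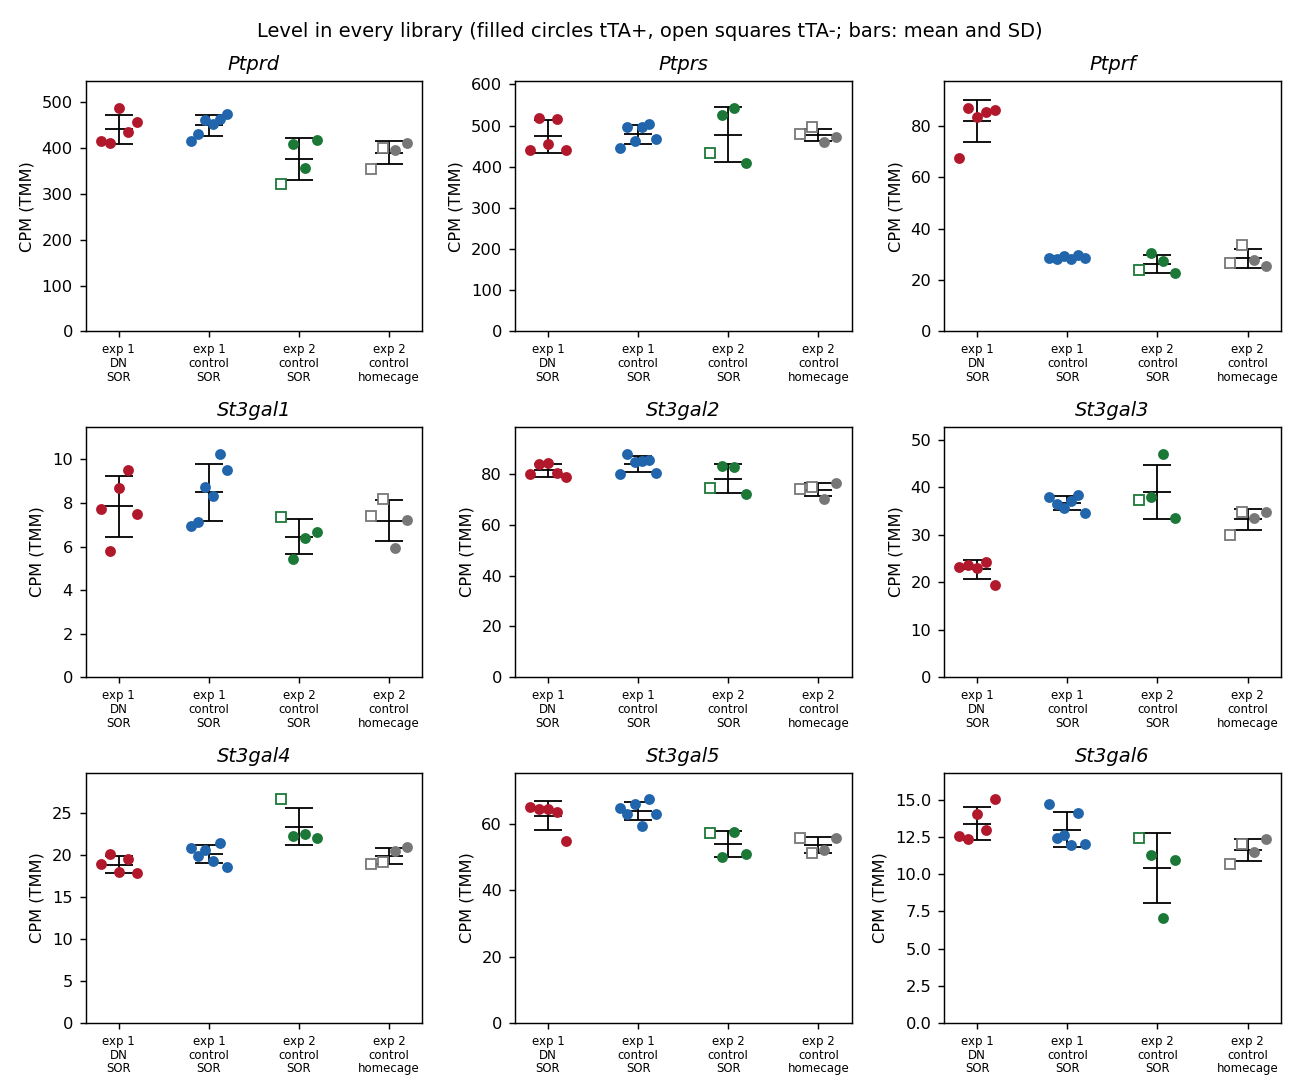
CPM in every library for the 7 paralogs and for Ptprf and St3gal3, by group, with the mean and SD as bars, filled circles for tTA+ and open squares for tTA- libraries. Between DN and control libraries of experiment 1 the points separate for Ptprf (67.4 to 86.9 against 28.0 to 29.8 CPM) and St3gal3 (19.4 to 24.3 against 34.6 to 38.5 CPM) and overlap for all 7 paralogs.

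**Figure D3:**
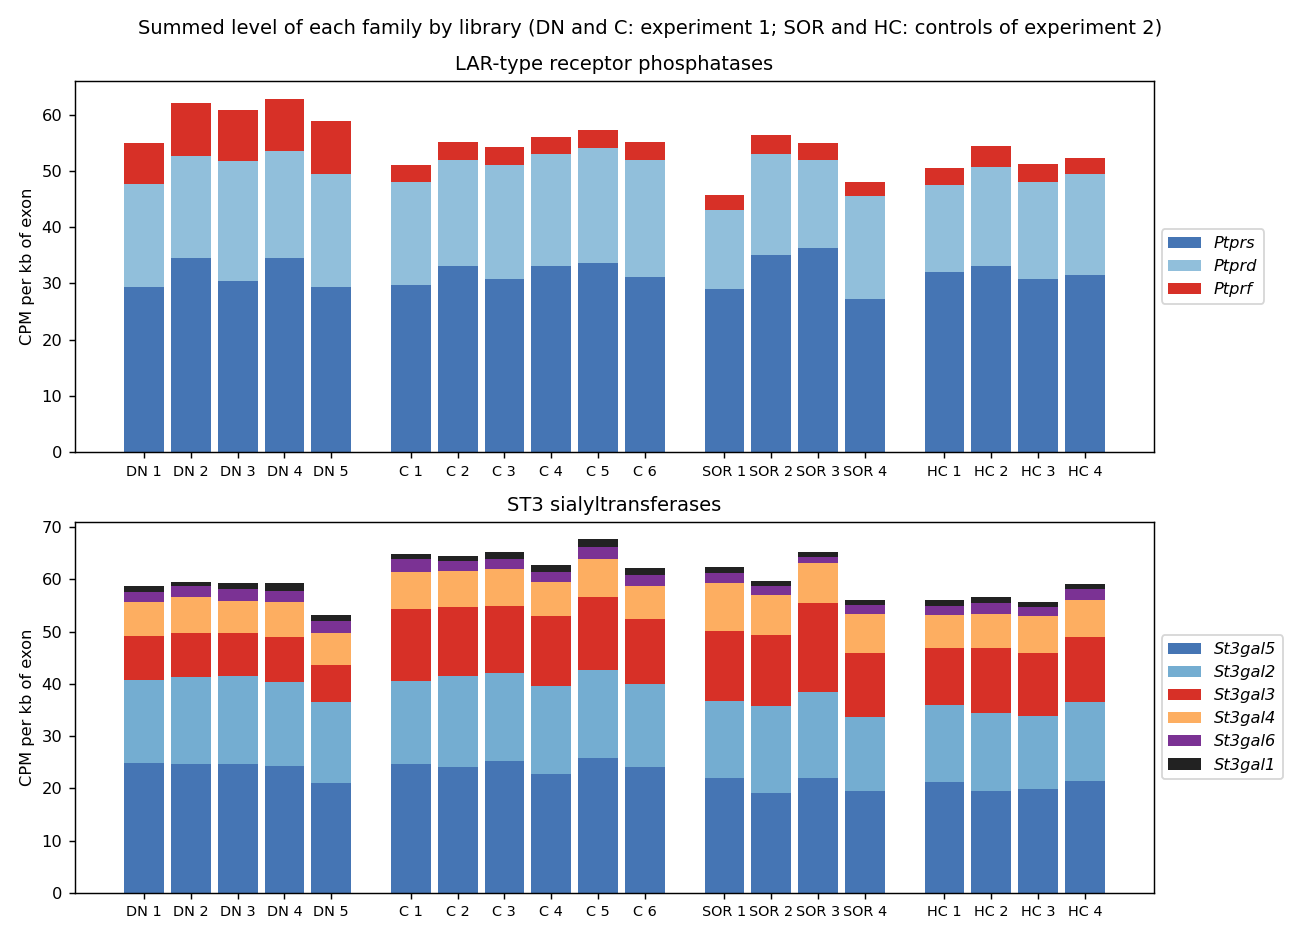
Summed CPM per kb of exon of the 3 LAR-type genes and of the 6 ST3 genes in each library, stacked by gene. In the DN libraries the Ptprf segment is larger (14.9% of the sum against 5.75%, or 8.58% against 3.16% with the longest coding transcript as length) and the St3gal3 segment smaller (14.1% against 20.5%).

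The second comparison asked whether the paralogs differed between SOR and homecage control libraries. Of 22305 genes tested, 0.0897% were called. Again 0 of the 7 paralogs were called by edgeR and 0 by DESeq2, and 1 had an unadjusted p under 0.05 by either tool, against 7.6% of all genes by edgeR. The log2 fold changes ran from -0.15 to 0.23 with a median of 0.00, and the median of all genes was 0.01.

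The 1 gene was St3gal4, which acts mainly on N-linked chains. The 4 SOR libraries measured 26.6, 22.3, 22.5 and 21.97 CPM, and the 4 homecage libraries 18.9, 19.1, 20.4 and 20.9 CPM. The groups did not overlap, as in 5.71% of all genes, and SOR replicate 1, a tTA- library, stood above the rest. The log2 fold change was 0.23 (SE 0.0949, 95% interval 0.03 to 0.44), with an edgeR adjusted p of 0.628 (0.0308 before adjustment). It was 0.10 in the tTA+ libraries alone, with an unadjusted p of 0.437, and 0.16 without SOR replicate 1, with an unadjusted p of 0.109. Over these and the other alternatives the adjusted p ran from 0.137 to 0.998. The opposite-strand transcript 4930581F22Rik averaged 5.57 ± 0.515 CPM in SOR libraries, next to 6.79 ± 0.377 CPM in homecage libraries (SD, n = 4 each). The 5 blood markers summed to 73.4 to 106 CPM after SOR and 62.3 to 101 CPM in the homecage, and the choroid plexus markers to the ranges given above. All 8 choroid plexus markers had a positive log2 fold change, with a median of 2.17. Of the 5 blood markers 4 had a positive value and 1 a negative one. edgeR called 0 of either list, and 4 and 1 had an unadjusted p under 0.05, against 7.6% of all genes. The 8 oligodendrocyte markers summed to 6149 to 7248 CPM in the SOR libraries, next to 5665 to 6758 CPM in the homecage ones. Of these 8 markers 7 had a positive log2 fold change, edgeR called 0, and 2 had an unadjusted p under 0.05, Mobp at 0.28 with groups that did not overlap and Cldn11 at 0.22. The 8 neuron markers summed to 3002 to 3754 and 3417 to 3742 CPM. The part of these cell types in the St3gal4 values was not tested.

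The other 6 paralogs overlapped between SOR and homecage libraries. Ptprd measured 322, 410, 357 and 418 CPM in the SOR libraries, 355 CPM in homecage replicate 1 and 397 to 411 CPM in the other 3 homecage libraries, a log2 fold change of -0.05 (SE 0.0981). Ptprs measured 433, 525.9, 543 and 408 CPM in the SOR libraries, next to homecage values of 479, 497, 460.1 and 472 CPM, a log2 fold change of 0.00 (SE 0.101). For Ptprs the means were nearly equal, while the SOR libraries spread on both sides of the homecage libraries, with an SD of 66.8 against 15.5 CPM (n = 4 each). For both genes the 95% interval of the fold change, 0.831 to 1.119 and 0.859 to 1.17, was wider than with DN.

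St3gal6 was low in SOR replicate 3, the smallest library, at 7.05 CPM from 149 counts, while the other 7 libraries of experiment 2 lay between 10.7 and 12.5 CPM. SOR replicate 3 also had the fewest genes detected (27815), the lowest TMM factor (0.950) and the lowest neuron marker sum (3002 CPM). The log2 fold change of St3gal6 was -0.15 (SE 0.156) over all libraries and -0.01 without that library. For St3gal1, St3gal2 and St3gal5 the log2 fold changes were -0.15 (SE 0.145), 0.08 (SE 0.0801) and 0.01 (SE 0.0832). With a library left out, St3gal1 ran from -0.24, without homecage replicate 3, to -0.07, without SOR replicate 2, and St3gal2 from 0.05, without SOR replicate 2, to 0.12, without SOR replicate 4.

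The third comparison set tTA+ against tTA- control libraries of experiment 2, with exposure in the model. Of 22904 genes tested 0.358% were called, and 0 of the 7 paralogs were called by edgeR or by DESeq2. Neither tool gave any of them an unadjusted p under 0.05, against 5.71% of all genes by edgeR. St3gal1 was lower in all 5 tTA+ libraries, at 5.42, 6.39, 6.66, 5.92 and 7.21 CPM, than in the 3 tTA- libraries, at 7.34, 7.41 and 8.18 CPM. Groups did not overlap in 5.8% of all genes. The log2 fold change of St3gal1 was -0.25 (SE 0.137, 95% interval -0.56 to 0.05), with an edgeR adjusted p of 0.9999 (0.0967 before adjustment). Over the alternatives the value for St3gal1 ran from -0.59, with the replicate block, to -0.19, without homecage replicate 3. Ptprd had the largest positive value, 0.18 (SE 0.0961), from means of 398 ± 24.6 CPM over 5 tTA+ and 359 ± 39.0 CPM over 3 tTA- libraries (SD), which overlapped. With a library left out the value for Ptprd ran from 0.10, without SOR replicate 1, to 0.25, without homecage replicate 2. For the other 5 the log2 fold changes ran from -0.11 to 0.04.

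**Figure D4:**
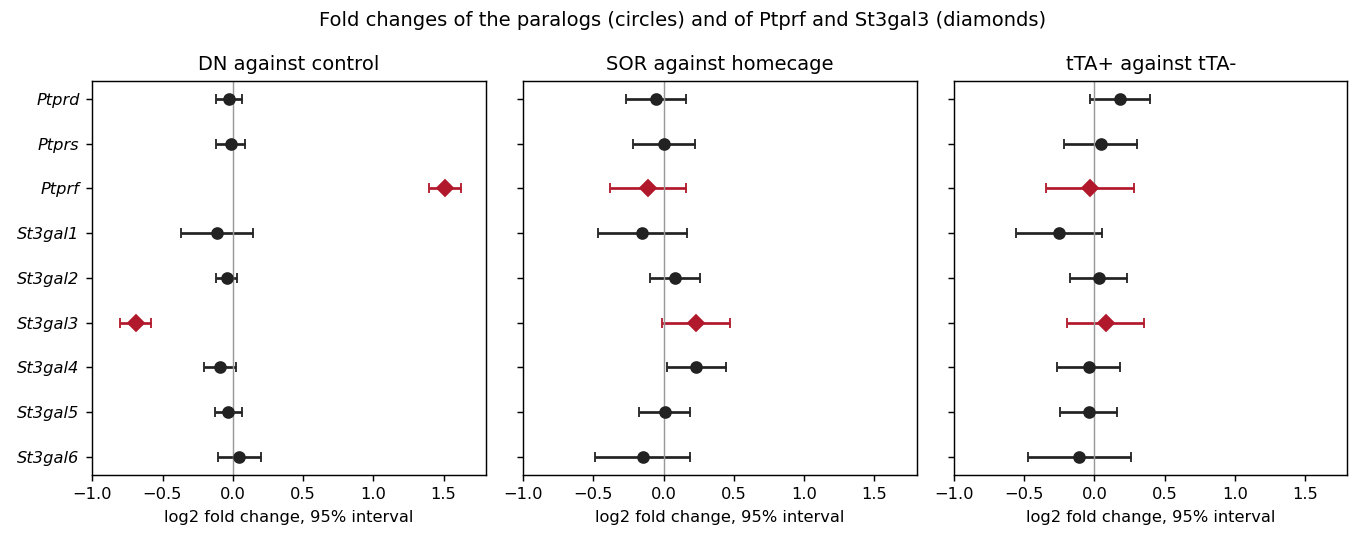
Log2 fold change with its 95% interval for each gene in the 3 comparisons, with circles for the 7 paralogs and diamonds for Ptprf and St3gal3. In the DN comparison the paralogs lie between -0.11 and 0.05 while Ptprf lies at 1.51 and St3gal3 at -0.69.

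Genes that work with these families were read from lists of 51 genes, 50 of which were tested. The exception, St6galnac1, had at most 3 counts in any library. With DN, edgeR and DESeq2 each called 0 of the 50 and gave 0 an unadjusted p under 0.05, while edgeR called 0.00893% of all genes and gave 3.83% such a p. The smallest edgeR p among surface partners of LAR-type receptors belonged to Slitrk5, a synaptic adhesion protein, at 105 ± 4.98 CPM against 109 ± 4.03 CPM and a log2 fold change of -0.06. Among intracellular partners it was Ppfia1, a liprin scaffold, at 0.04, and among other sialyltransferases St8sia5, which extends ganglioside sialic acid chains, at -0.09. Among genes of sialic acid supply and removal it was Nanp at -0.34, from 0.866 ± 0.284 and 1.11 ± 0.100 CPM, and among ganglioside synthesis genes B3galt4 at 0.19. The medians over the lists of 15, 7, 13, 10 and 5 tested genes were -0.0082, -0.019, -0.012, -0.0035 and -0.033.

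After SOR edgeR and DESeq2 again called 0 of the 50, and 7 had an unadjusted p under 0.05, which is 14.0%, against 0.0897% called and 7.6% with such a p among all genes by edgeR. St8sia1, which makes ganglioside GD3, averaged 38.1 ± 4.04 CPM in SOR libraries, next to 46.7 ± 2.07 CPM in homecage libraries (SD, n = 4 each), with no overlap (as in 5.71% of all genes), a log2 fold change of -0.29 (SE 0.0926) and an edgeR adjusted p of 0.604. Ntrk3 averaged 266 ± 34.4 and 328 ± 50.7 CPM in these groups, and Neu4, a sialidase, 17.0 ± 1.34 and 14.6 ± 0.837 CPM, both with overlap. The smallest p of the liprin and scaffold list was that of Ppfia3, at a log2 fold change of 0.21, and of the ganglioside list that of B4galt6, at -0.23. Of the 15 surface partners 13 were lower after SOR and 2 higher, where 10814 of all 22305 genes were lower. Medians over the lists, in the order given for DN, were -0.14, 0.035, -0.12, 0.036 and -0.068, against 0.0076 over all genes.

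By tTA genotype edgeR called 0 of the 50 and DESeq2 called 1, Ppfia2, and 6 had an unadjusted p under 0.05. Among all 22904 genes edgeR called 0.358% and gave 5.71% such a p, DESeq2 called 255, and groups did not overlap in 5.8%. Ppfia2, a liprin that binds LAR-type phosphatases inside the cell, averaged 381 ± 11.2 CPM over 5 tTA+ and 493.3 ± 22.3 CPM over 3 tTA- libraries (SD), with no overlap. The log2 fold change of Ppfia2 was -0.37 (SE 0.0803), with an adjusted p of 0.137 by edgeR and 0.00268 by DESeq2. Lrfn5, a synaptic adhesion protein that binds these receptors, was at 123 ± 2.64 and 144 ± 9.99 CPM, also with no overlap. The smallest p of the other lists belonged to St8sia2, Neu4 and B3galt4, with log2 fold changes of 0.67, 0.18 and 0.12. Of the hippocampal neuron markers edgeR called C1ql2, a granule cell gene, at a log2 fold change of -2.19 with an adjusted p of 3.16e-04. With the replicate block, an alternative fit, edgeR called 0 genes by tTA. C1ql2 averaged 19.1 ± 4.19 CPM over tTA+ and 86.0 ± 6.54 CPM over tTA- libraries, and its part in the Ppfia2 values was not tested.

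Variation between libraries of one group was compared over the 19 libraries, after each gene was centred on its group means. These correlations describe libraries that also share depth, RNA quality and dissection, and carry no test. Of the 21 pairs of paralogs, Ptprs and St3gal2 varied most alike (r = 0.779, rho = 0.739). Ptprd and St3gal4 varied most oppositely (r = -0.538, rho = -0.539), while Ptprd and Ptprs were nearly unrelated (r = -0.0755).

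Among 16852 genes compared, the pattern of Ptprs was most like that of Hk1, a hexokinase (r = 0.941), and Atp6v0a1, a subunit of the vacuolar proton pump (r = 0.927). Ptprd was most like Gm37608 (r = 0.885) and Cntn3, a contactin adhesion protein (r = 0.872). St3gal2 was most like Hcn2, a pacemaker channel (r = 0.873), and Arfgef2 (r = 0.851), and St3gal4 was most like Med22 (r = 0.893) and Tmem129 (r = 0.836). St3gal5 was most like Snx3 (r = 0.843) and Sh3gl2 (r = 0.817), and St3gal1 was most like Ldb2 (r = 0.848) and Nwd2 (r = 0.845). For St3gal6 the closest were 5430416N02Rik (r = 0.901) and Pxk (r = 0.897), and these fell to 0.692 and 0.722 without the 2 libraries farthest from the median. For the 6 other paralogs the values without such libraries were 0.733 to 0.931. For each marker list, only the paralog with the largest absolute r is named. The summed choroid plexus markers had r = -0.650 with St3gal1, and the summed blood markers r = 0.693 with St3gal4. The summed neuron markers had r = 0.560 with St3gal6, and the summed oligodendrocyte markers r = 0.345 with Ptprd. SOR replicate 3 of experiment 2 held the lowest St3gal6 level (7.05 CPM) and the lowest neuron sum (3002 CPM). These marker values were not recomputed without far libraries.

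Since DN acts on Nr4A factors, which bind the letters AAAGGTCA, promoters in the RefSeq table (GRCm38.p6, 250 bases before to 50 after a start) were searched on both strands. Windows were found for 4 of the 7 paralogs (Ptprs and St3gal6 with 2 each, St3gal4 and St3gal5 with 1) and 1 each for Ptprf and St3gal3. None of these 8 windows held AAAGGTCA, which 1.51% of all 32851 promoters hold. Its last 6 letters alone, AGGTCA, occur in 16.3% of promoters and in 1 of the 8 windows, the upstream window of Ptprs. That window lies at chr17:56476431-56476730 on the minus strand of GRCm38.p6, has 65.7% G and C, and holds the match, in capitals, 226 bases before the start.
Ptprs promoter: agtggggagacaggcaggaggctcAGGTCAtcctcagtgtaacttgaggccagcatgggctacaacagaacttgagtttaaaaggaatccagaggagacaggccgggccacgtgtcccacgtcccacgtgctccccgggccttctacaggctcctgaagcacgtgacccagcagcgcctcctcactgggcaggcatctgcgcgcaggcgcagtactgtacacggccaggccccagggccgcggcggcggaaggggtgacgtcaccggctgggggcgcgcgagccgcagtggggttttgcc
A match describes letters in this window only, and the absence of one says nothing of binding elsewhere.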

How the data were processed

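Total RNA was isolated with Trizol before Ribo-Zero Gold TruSeq library preparation, per the labels' protocols. The deposited values are raw whole-number counts per gene in 1 table. The submitters' processing notes name STAR, SAMtools 1.6, featureCounts 1.4.4 and mm10; annotation and strand setting are not given in the sources used here. Each column was matched to 1 library by its description. Symbols and lengths came from GENCODE M21 (GRCm38), which held 51596 of the 51789 identifiers.

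Each experiment was fitted alone with edgeR 4.0.16 (R 4.3.3): TMM, filterByExpr, robust quasi-likelihood F tests, two-sided, Benjamini-Hochberg adjustment over all genes tested, called at an adjusted p under 0.05. The tests were checked on simulated data. SE is the absolute log2 fold change over the root of F. Levels were taken as CPM with TMM factors of each experiment. Library pairs of a group differed by a chi-square per degree of freedom of 5.07 to 83.6 in genes with at least 40 counts in the pair, so none was merged. The likeness of patterns used log2 CPM (prior count 2) of genes with a mean of at least 1 CPM.

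Alternatives were DESeq2 1.42.0, its size factors in edgeR, no filter, a replicate block, all 19 libraries in 1 fit, tTA as a covariate, tTA+ libraries alone, no exposure term, another gene length, and each library left out. The paralogs and gene lists were chosen with earlier results of these data known. Named genes were the paralogs, Ptprf, St3gal3, called or smallest-p genes of each list and comparison, and the 2 genes most alike in pattern.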

Additional observations from a re-analysis of the deposited data

Results flagged for a closer look

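Of 36 sets of libraries (9 genes in 4 groups), 4 held a library far from the others, where chance flags about 1 in 20. St3gal4 was at 26.6 CPM in SOR replicate 1 of experiment 2, against 21.97 to 22.47 CPM in the other 3 SOR libraries. St3gal5 was at 54.9 CPM in DN replicate 5, against 63.6 to 65.1 CPM in the other 4 DN libraries, and St3gal3 in the same library was at 19.4 CPM against 23.0 to 24.3 CPM. Ptprf was at 67.4 CPM in DN replicate 1, against 83.3 to 86.9 CPM in the other DN libraries.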

How the results depend on the processing

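Over 315 recomputed fold changes of the 7 paralogs none was called, the smallest adjusted p being 0.137 (edgeR, all 19 libraries, St3gal4 after SOR), and 27 had the opposite sign. The count of genes called with DN was 2 throughout. With SOR it was 20, and 36 without a filter, 116 by DESeq2, 145 with all libraries, 11 with tTA as a covariate, 0 in tTA+ libraries alone and 1 to 50 with a library left out. By tTA it was 82, and 265 without a filter, 255 by DESeq2, 383 with all libraries and 10 to 290 with a library left out. With the replicate block the counts were 2 with DN, 9 with SOR and 0 by tTA. Same-numbered libraries had correlations of -0.050 to 0.194 in experiment 1 and 0.045 to 0.391 in experiment 2, and 2 of 10 and 3 of 8 libraries correlated best with their own number, so the numbers were not taken as pairs. Causes were not tested.

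Log2 fold changes near 0 changed sign. With a library left out, DN values ran from -0.06476 to -0.002958 for Ptprd, with no change of sign, from -0.04909 to 0.01296 for Ptprs and from -0.05306 to 0.01341 for St3gal5. SOR values ran from -0.1063 to 0.01575 for Ptprd, -0.06564 to 0.06967 for Ptprs and -0.02477 to 0.04015 for St3gal5. By tTA they ran from -0.06395 to 0.08345 for Ptprs, -0.02041 to 0.06751 for St3gal2, -0.0884 to 0.123 for St3gal4, -0.08069 to 0.01483 for St3gal5, -0.1883 to 0.07255 for St3gal6 and -0.178 to 0.09688 for Ptprf. After SOR, Ptprs was at -0.0077 and St3gal5 at -0.0027 without a filter, and Ptprs at -0.0085 with the replicate block and -0.0097 with tTA as a covariate. In tTA+ libraries alone St3gal5 was at -0.03161 and Ptprf at 0.01938. By tTA, St3gal4 was at 0.0055 with no exposure term, and St3gal6 at 0.12 and St3gal3 at -0.13 with the replicate block. With the longest coding transcript as length, the homecage shares were 35.0% for Ptprd, 3.28% for Ptprf, 14.5% for St3gal4, 33.7% for St3gal5 and 4.32% for St3gal6. St3gal1, the gene of the 7 with the lowest level, had 135 to 423 counts per library.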
